A study of Mus musculus with 4 samples.

Results

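Of the 55401 genes counted in freshly made RNA of mouse embryonic stem cells, 62 carried symbols of 4 families named for the centrosome and the cilium. They were the 37 numbered Cep genes (centrosomal proteins), the 14 numbered Ift genes (intraflagellar transport), the 8 numbered Bbs genes (Bardet-Biedl syndrome) and the 3 Tctn genes (tectonics). Membership rested on the symbol alone, leaving out symbols ending in -ps or os, and took no measured value as a criterion. The families themselves were chosen with earlier results of these data known. A filter on low counts left 60 members among 17344 tested genes: 35 Cep, 14 Ift, 8 Bbs and 3 Tctn. The other 2 members were not tested. Cep112it had 5 and 4 counts without auxin and 0 and 4 with it, and Cep295nl had 3 and 2 counts without auxin and 8 and 7 with it.

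The cells were a 129/Ola embryonic stem cell line with an auxin-inducible degron on SNRNP70, a tag through which the auxin IAA triggers destruction of the protein; SNRNP70 is a core protein of U1 snRNP, a ribonucleoprotein particle of splicing. RNA made in the presence of 4-thiouridine (4sU), a uridine analogue that marks new transcripts, was captured and sequenced. Cells without auxin (0 h, 2 libraries) were compared with cells given IAA for 5 h (2 libraries), in a study that set SNRNP70 beside ZFP207 in the work of U1 snRNP. Both groups carried the degron, although the labels name the 0 h genotype WT and only the 5 h genotype SNRNP70 degradation. Both were grown in serum medium with leukemia inhibitory factor. No auxin-treated cells without the degron were analysed here, so loss of SNRNP70 and any effect of auxin itself cannot be told apart. The design text calls the replicates independent without saying what was separate, so the p-values measure the spread between these libraries, which may be partly technical.

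A centrosome is a pair of centrioles in a cloud of proteins that grows microtubules, and a new centriole is built beside each old one once per cell cycle. In a resting cell the older centriole can dock at the membrane through its appendages and become the base of a primary cilium, a sensory antenna of the cell. Intraflagellar transport trains carry cargo along the cilium, the BBSome links membrane proteins to those trains, and the transition zone, which contains the tectonics, acts as the gate at the cilium's base. U1 snRNP recognises 5′ splice sites and also keeps RNA polymerase from ending transcripts early at poly(A) signals inside introns.

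Library totals were 17752887 counts (replicate 1) and 7174772 counts (replicate 2) at 0 h, against 15645894 and 10349277 counts at 5 h. The members together took 0.352% and 0.365% of all counts at 0 h and 0.224% and 0.233% at 5 h. Levels are given as CPM, a gene's counts relative to its library's total, after TMM scaling, which sets the bulk of genes equal between libraries. The mitochondrially encoded genes took 4.41% and 4.34% of counts at 0 h and 6.03% and 7.17% at 5 h. No spiked-in RNA is described, so changes are relative to the other RNAs. The summed level of 9 embryonic stem cell markers was 4115 and 3952 CPM at 0 h and 4066 and 3991 CPM at 5 h; of the 9, 3 fell and 3 rose (7 and 0 with mitochondrial scaling). Among 4 neural markers, Sox1 rose by 1.46 ± 0.31 (adjusted p = 0.00321; 0.62 and not passed with mitochondrial scaling), Tubb3 fell by 0.61 and 2 did not pass. Feeder fibroblast markers summed to 10.9 to 12.4 CPM at 0 h and 13.7 to 14.3 CPM at 5 h, with Postn, Lum, Col3a1 and Dcn at 0 in every library. Multiciliated cell markers summed to 20.5 to 23.0 CPM at 0 h and 23.3 to 32.6 CPM at 5 h, with Mcidas and Deup1 at 0 in every library; without Ccno the sum was 20.3 and 18.8 CPM at 0 h and 17.1 and 15.2 CPM at 5 h. The part of these markers in the members' values was not tested. Snrnp70 RNA was at 249 and 243 CPM at 0 h and 451 and 475 CPM at 5 h, which does not check the removal of the protein. In bulk RNA, fewer cells of a type and less new RNA per cell cannot be told apart.

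Centrosome and cilium genes were mostly lower after 5 h of auxin. Of the 60 tested members, 35 fell and 5 rose at an adjusted p under 0.05 (edgeR quasi-likelihood test, Benjamini-Hochberg over all 17344 genes), and 20 did not pass. Over all tested genes, 21.2% fell and 22.0% rose, against 58.3% and 8.33% of the members. By 2-fold or more, 22 members fell, which is 36.7% against 10.2% of all genes, and 1 rose, Ift20, against 7.60% of all genes. The libraries of the 2 times did not overlap for 44 members that were lower and 10 that were higher at 5 h, against 37.5% and 36.0% of all genes. The median member log2 fold change was -0.76, a 1.69-fold lower level, with a range of -2.23 to 1.13, while the median of all tested genes was -0.02. Each of the 4 pairings of a 5 h with a 0 h library gave a median between -0.77 and -0.66, with 47 or 48 of the 60 members below 0. The median size of the difference between replicates was 0.15 at 0 h and 0.23 at 5 h on the log2 scale over the members, against a median size of change of 0.80. Over all tested genes these were 0.19, 0.24 and 0.59.

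The split between higher and lower members depended on the scaling. Scaled to library totals, 44 members fell and 2 rose, with 30.3% and 13.2% of all genes. Scaled to the mitochondrially encoded genes, 54 fell and none rose, with 51.2% and 2.28% of all genes, and the median of all genes shifted to -0.86. Ift20 was then the only member above 0 (0.30, edgeR adjusted p = 0.394). The members' median stayed below that of all genes under each scaling, at -1.03 against -0.28 with library totals and -1.60 against -0.86 with the mitochondrial genes. Without a 0 h or 5 h library in turn, 30 to 35 members fell and 3 to 6 rose.

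**Figure D1:**
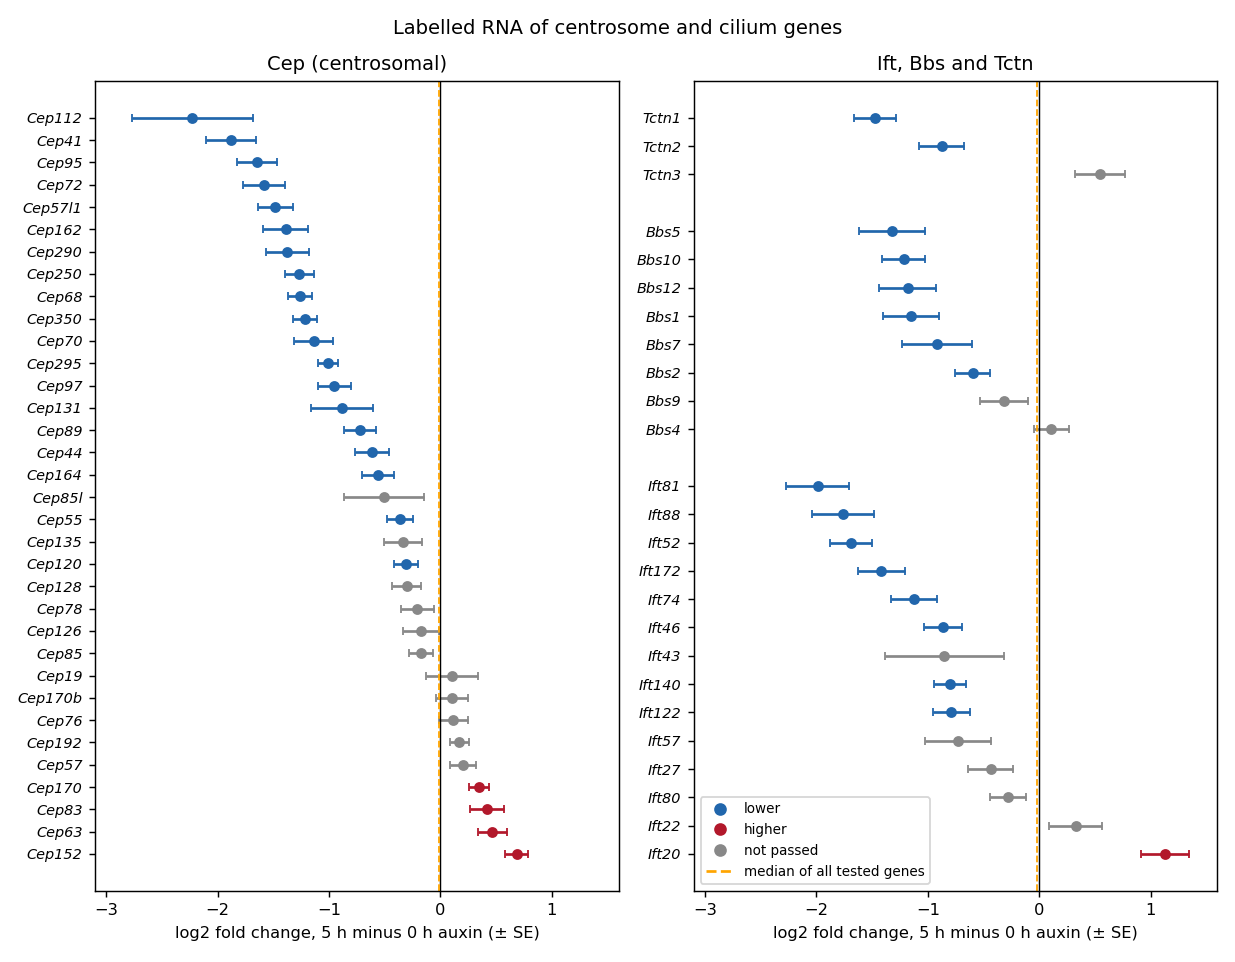
Log2 fold change at 5 h minus 0 h of auxin for the tested members described by name here, with standard errors, grouped by family, coloured by whether the member was lower, higher or not past an adjusted p under 0.05, with a dashed line at the median of all tested genes. In it, 35 fell and 5 rose with TMM scaling (with mitochondrial scaling 4 of the 5 turn below 0), and values run from -2.23 (Cep112) to 1.13 (Ift20).

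The genes of centriole assembly moved in both directions. Of 13 such members, 5 fell, 2 rose and 6 did not pass, with a median log2 fold change of -0.21. These are 38.5% lower and 15.4% higher, against 21.2% and 22.0% of all tested genes. Cep152 (chr2:125549864-125625174), the scaffold that brings the kinase PLK4 to the parent centriole, was at 83.2 and 78.1 CPM at 0 h and 131 and 128 CPM at 5 h. Both 5 h libraries lay above both 0 h libraries and Cep152 rose 1.61-fold (log2 fold change 0.68 ± 0.10 SE, adjusted p = 0.000410), but scaled to the mitochondrial genes its value was -0.16. Its partner Cep63 (chr9:102586578-102626564) was at 33.7 and 32.8 CPM at 0 h and 45.0 and 47.1 CPM at 5 h. Cep63 rose 1.38-fold (0.47 ± 0.13, adjusted p = 0.0153) with no overlap, was at -0.38 with mitochondrial scaling, and lost its call without either 0 h library (adjusted p = 0.0709 and 0.0898).

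Their relatives named next were not called higher. Cep192, which recruits PLK4 together with CEP152 and organises the surrounding material, was at 338 and 333 CPM at 0 h and 364 and 391 CPM at 5 h, and did not pass (0.17 ± 0.09, adjusted p = 0.142). Cep57, which sits with CEP63 and CEP152, had a log2 fold change of 0.21 ± 0.12 (adjusted p = 0.182), and 0.32 without 5 h replicate 1. Both 5 h libraries of Cep192 and of Cep57 lay above both 0 h libraries. With mitochondrial scaling Cep192 was at -0.68 and Cep57 at -0.65. Cep57l1 (chr10:41718840-41809868), the close relative of Cep57, was at 41.5 and 42.8 CPM at 0 h and 16.0 and 13.9 CPM at 5 h. Both 5 h libraries were far below both 0 h libraries, and Cep57l1 fell 2.80-fold (-1.48 ± 0.16, adjusted p = 6.58e-05).

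Cep295 (chr9:15316914-15357849), needed to turn new centrioles into working centrosomes, was at 371 and 398 CPM at 0 h and 184 and 198 CPM at 5 h. It fell 2.01-fold (-1.01 ± 0.09, adjusted p = 3.21e-05) with no overlap. The RefSeq span of Cep295 overlaps Taf1d and the small RNA gene Scarna9, whose reads could not be told apart from it here. Cep97, which with CP110 caps the centriole end, was at 45.9 CPM in both 0 h libraries and 21.7 and 25.9 CPM at 5 h, and fell by 0.95 ± 0.15 on the log2 scale (adjusted p = 0.000553). Cep44 fell by 0.62 ± 0.15 (adjusted p = 0.00734) and Cep120, a centriole elongation factor, by 0.31 (adjusted p = 0.0385). Neither call was stable: Cep44 did not pass without 0 h replicate 2 (-0.55). Cep120 did not pass with DESeq2 (adjusted p = 0.0993) or with no count filter in edgeR (adjusted p = 0.0840). It also did not pass without either 0 h library or without 5 h replicate 2. Cep135, Cep85, Cep76 and Cep78 did not pass with TMM scaling. With library totals, Cep135 (-0.61), Cep85 (-0.44) and Cep78 (-0.48) passed as lower, and with mitochondrial scaling Cep76 (-0.74) did too. Cep135 was at -0.54 without 5 h replicate 2.

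The appendage genes were also split, with 2 that fell, 2 that rose and 2 that did not pass among 6, and a median of -0.10. Over so few genes, 33.3% each way is not far from the 21.2% lower and 22.0% higher of all tested genes. Distal appendages anchor the centriole to the membrane. Cep83 (chr10:94688624-94790336), the base of the distal appendage, was at 51.6 and 59.0 CPM at 0 h and 62.9 and 84.6 CPM at 5 h. It rose 1.33-fold only just (0.42 ± 0.15, adjusted p = 0.0496), and with DESeq2 (adjusted p = 0.0607), without 0 h replicate 1 (0.219) or without 5 h replicate 2 (0.251) it did not pass, while mitochondrial scaling gave -0.45. Its neighbours in the same structure were lower: Cep89 was at 39.4 and 39.8 CPM at 0 h and 22.9 and 25.3 CPM at 5 h and fell by 0.72 ± 0.15 (adjusted p = 0.00249). Cep164 was at 35.7 and 36.6 CPM at 0 h and 24.7 and 24.3 CPM at 5 h and fell by 0.56 ± 0.14 (adjusted p = 0.00981), though not without 0 h replicate 2 (adjusted p = 0.0576).

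Cep170 (chr1:176729072-176813979), a marker of subdistal appendages, was at 213 and 212 CPM at 0 h and 259 and 281 CPM at 5 h. The groups did not overlap and Cep170 rose 1.27-fold (0.35 ± 0.09, adjusted p = 0.0100). With mitochondrial scaling Cep170 passed as lower instead (-0.50, edgeR adjusted p = 0.0142), the only member whose call reversed in this way. It also lost its call as higher without either 0 h library (0.35 and 0.34). Cep128, another subdistal appendage gene, had -0.30 (adjusted p = 0.0860), and Cep19, a mother centriole protein of ciliogenesis, had 0.10 ± 0.23 (adjusted p = 0.751) with overlapping libraries.

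Both members of the fibrous linker that holds the parent centrioles together were lower by similar amounts. Cep250 (chr2:155956285-155998900), which encodes C-Nap1, the base of the linker, was at 74.8 and 73.7 CPM at 0 h and 28.7 and 33.2 CPM at 5 h, and fell 2.41-fold (-1.27 ± 0.13, adjusted p = 5.40e-05). Cep68 (chr11:20227037-20249424), a linker filament protein, was at 122 and 129 CPM at 0 h and 54.1 and 50.6 CPM at 5 h, and fell 2.40-fold (-1.26 ± 0.11, adjusted p = 2.27e-05). For both genes the 0 h and 5 h libraries lay far apart compared with the gap between replicates.

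Of the 7 members placed in satellites, transition zone or axoneme, 5 fell, none rose and 2 did not pass, with a median of -1.38. That is 71.4% lower and 0% higher, against 21.2% and 22.0% of all tested genes. The grouping was made with the counts already seen. Cep41 (chr6:30653457-30710517), which supports tubulin glutamylation in the axoneme, was at 21.5 and 23.4 CPM at 0 h and 5.39 and 6.92 CPM at 5 h. It fell 3.67-fold (-1.88 ± 0.22, adjusted p = 0.000119). Cep72 (chr13:74036495-74062319), a satellite protein, was at 27.4 and 31.0 CPM at 0 h and 10.2 and 9.19 CPM at 5 h, and fell by 1.59 ± 0.19 on the log2 scale (adjusted p = 0.000110). Both genes had every 5 h library below every 0 h library. Cep290, which links membrane and microtubules in the transition zone, fell by 1.38 ± 0.19 (adjusted p = 0.000275), with 51.5 and 59.8 CPM at 0 h and 17.3 and 25.9 CPM at 5 h. Cep162, which helps assemble the transition zone, fell by 1.39 ± 0.20 (adjusted p = 0.000385), from 67.6 and 76.0 CPM to 20.9 and 34.4 CPM. For Cep290 and Cep162 the 5 h replicates differed by more than they did for Cep41 and Cep72, with replicate 2 the higher. Cep131, a satellite component, fell by 0.89 ± 0.28 (adjusted p = 0.0244), and not without 0 h replicate 1 or 5 h replicate 2.

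The remaining 7 Cep genes, for which a role was not assigned here, held 5 that fell and 2 that did not pass (Cep170b and Cep85l). Their share lower was 71.4%, against 21.2% of all tested genes. Cep350 (chr1:155844964-155973270), a large centriolar protein, was at 112 and 116 CPM at 0 h and 47.6 and 50.8 CPM at 5 h, and fell 2.32-fold (-1.21 ± 0.11, adjusted p = 2.86e-05). Cep95 (chr11:106788640-106818861) was at 35.2 and 43.5 CPM at 0 h and 13.1 and 11.7 CPM at 5 h, and fell 3.14-fold (-1.65 ± 0.18, adjusted p = 7.10e-05). Every 5 h library of both genes lay below every 0 h library. The RefSeq span of Cep95 overlaps Ddx5, whose reads could not be told apart from it here. Cep70 fell by 1.14, and Cep55, which acts in abscission at the end of cell division, by 0.36 ± 0.12 (adjusted p = 0.0277), the latter not without 0 h replicate 2 or 5 h replicate 1. Cep112 had the lowest fold change of all members, -2.23 ± 0.54 (adjusted p = 0.00728), on 63 and 33 counts at 0 h and 9 at each 5 h library, so its size is known poorly.

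**Figure D2:**
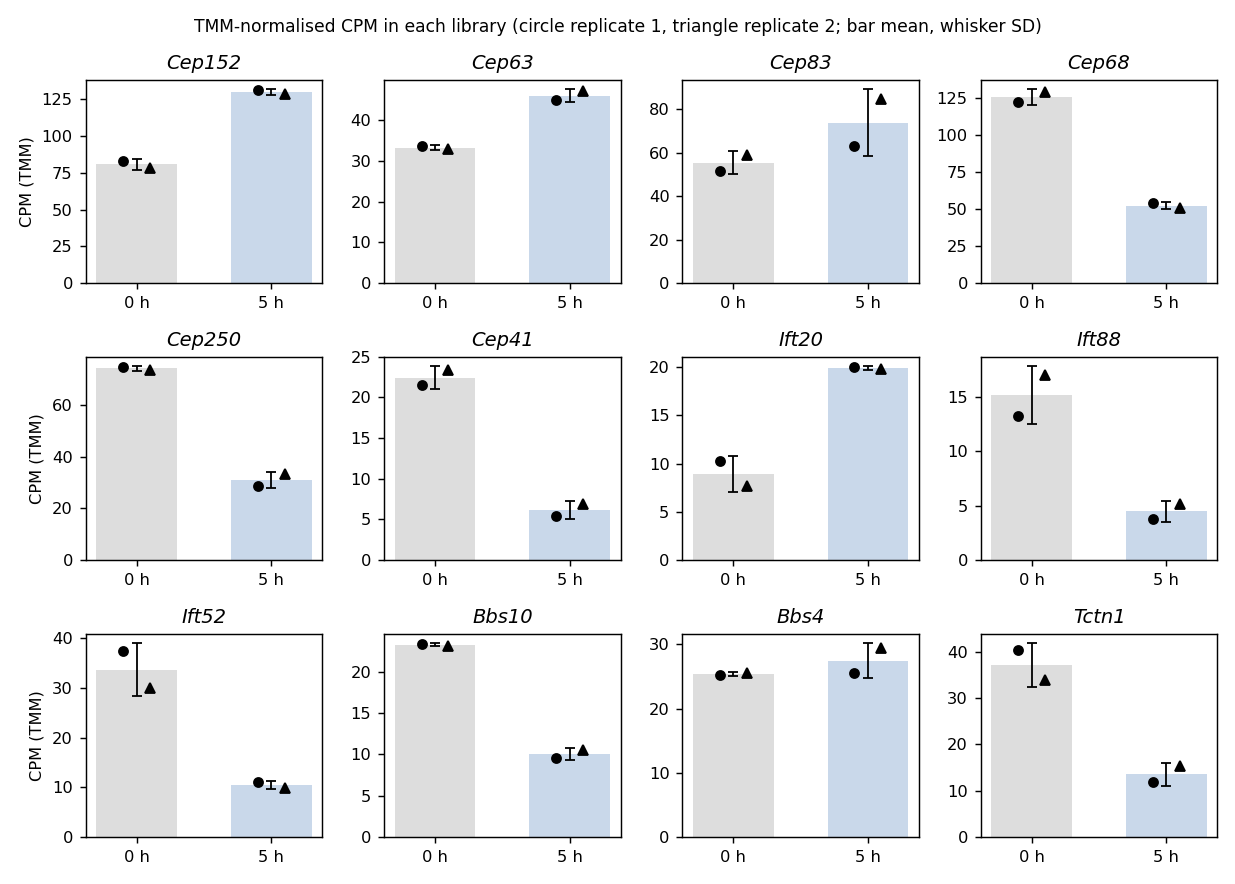
TMM-scaled CPM of 12 members in each library, with bars for the mean of 2 libraries, whiskers for the SD, and a circle and a triangle for replicates 1 and 2. Cep152, Cep63, Cep83 and Ift20 are higher at 5 h (the Cep genes not with mitochondrial scaling), the libraries of Bbs4 overlap, and the other 7 members are lower in both 5 h libraries.

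Intraflagellar transport runs on trains built of an IFT-B complex, which carries cargo toward the tip, and an IFT-A complex, which acts in the return. Of the 14 Ift members, 8 fell, 1 rose and 5 did not pass, with a median of -0.83. This is 57.1% lower and 7.14% higher, against 21.2% and 22.0% of all tested genes. IFT-A was represented by 3 members, and 2 of them fell. Ift140 was at 42.2 and 46.8 CPM at 0 h and 26.6 and 24.2 CPM at 5 h (-0.80 ± 0.14, adjusted p = 0.00129), and Ift122 fell by 0.79 ± 0.17 (adjusted p = 0.00325). Ift43 had 53 and 17 counts at 0 h and 22 and 11 at 5 h, and did not pass (-0.85 ± 0.53, adjusted p = 0.229).

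IFT-B held 11 members, of which 6 fell (54.5%, against 21.2% of all tested genes), 1 rose (9.09%, against 22.0%) and 4 did not pass. Ift52 (chr2:163017117-163046155), a core scaffold, was at 37.4 and 29.9 CPM at 0 h and 11.0 and 9.84 CPM at 5 h, and fell 3.23-fold (-1.69 ± 0.19, adjusted p = 8.43e-05). Ift88 (chr14:57424064-57517936), the gene affected in the polycystic kidney mouse, was at 13.3 and 17.1 CPM at 0 h and 3.80 and 5.19 CPM at 5 h, and fell 3.39-fold (-1.76 ± 0.28, adjusted p = 0.000585). In both, the 5 h libraries lay clearly below the 0 h libraries. Ift81 (chr5:122540265-122614546), which binds tubulin together with IFT74, was at 12.4 and 15.7 CPM at 0 h and 3.18 and 3.89 CPM at 5 h, and fell 3.97-fold (-1.99 ± 0.28, adjusted p = 0.000310). Ift172 (chr5:31253279-31291391), a peripheral subunit, was at 36.1 and 29.9 CPM at 0 h and 14.7 and 9.84 CPM at 5 h, and fell 2.67-fold (-1.42 ± 0.21, adjusted p = 0.000456). Ift74 and Ift46 fell by 1.13 and 0.86. Ift57 and Ift27 had -0.73 (adjusted p = 0.0685) and -0.44 (adjusted p = 0.108).

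Ift20 (chr11:78536361-78541732), an IFT-B subunit that also works at the Golgi, went the other way. It was at 10.2 and 7.63 CPM at 0 h and 20.03 and 19.8 CPM at 5 h. The groups were apart and Ift20 rose 2.19-fold (1.13 ± 0.22, adjusted p = 0.00196), while mitochondrial scaling left 0.30, which did not pass (adjusted p = 0.394). Ift22, also called Rabl5, was at 9.26 and 12.9 CPM at 0 h and 13.0 and 14.4 CPM at 5 h, and did not pass (0.33 ± 0.24, adjusted p = 0.301). Ift80 was at 65.6 and 66.8 CPM at 0 h and 45.2 and 64.7 CPM at 5 h, and did not pass (adjusted p = 0.197), with 5 h replicate 1 well below the other three libraries. Ift80 passed without 5 h replicate 2 (-0.55, adjusted p = 0.00414).

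The BBSome members were lower in most cases: 6 of 8 fell, none rose (Bbs4 alone was above 0) and 2 did not pass, with a median of -1.04. Of all tested genes, 21.2% fell and 22.0% rose, against 75% and 0% of these 8. Among the 6 structural subunits, 4 fell, with a median of -0.76. Bbs5 (chr2:69646848-69667571), which binds phosphoinositides, was at 9.68 and 8.53 CPM at 0 h and 3.45 and 3.89 CPM at 5 h, and fell 2.50-fold (-1.32 ± 0.30, adjusted p = 0.00452). Bbs1 (chr19:4886878-4906653), the subunit most often affected in the human syndrome, was at 19.1 and 15.0 CPM at 0 h and 8.91 and 6.38 CPM at 5 h, and fell 2.22-fold (-1.15 ± 0.25, adjusted p = 0.00371). Bbs2, at 33.0 and 31.0 CPM at 0 h and 20.2 and 22.4 CPM at 5 h, fell 1.51-fold (-0.60 ± 0.16, adjusted p = 0.0108), and not without 0 h replicate 1 (adjusted p = 0.0730). Bbs7 fell by 0.92 ± 0.32 (adjusted p = 0.0381), and did not pass with DESeq2 (adjusted p = 0.123) or without 0 h replicate 1, 0 h replicate 2 or 5 h replicate 1 (adjusted p = 0.0529, 0.150 and 0.170). Bbs4 was at 25.2 and 25.6 CPM at 0 h and 25.5 and 29.4 CPM at 5 h (0.11 ± 0.16, adjusted p = 0.611), and Bbs9 had -0.32 (adjusted p = 0.261), both with overlapping libraries.

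The 2 chaperonin-like members, which help assemble the BBSome, both fell. Bbs10 (chr10:111298679-111301736) was at 23.4 and 23.2 CPM at 0 h and 9.53 and 10.6 CPM at 5 h, a 2.32-fold fall (-1.22 ± 0.19, adjusted p = 0.000585). Bbs12 (chr3:37312547-37321450) was at 13.2 and 17.7 CPM at 0 h and 7.46 and 5.94 CPM at 5 h, a 2.26-fold fall (-1.18 ± 0.26, adjusted p = 0.00388). The 0 h and 5 h libraries of both were apart.

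Of the 3 tectonics of the transition zone, Tctn1 and Tctn2 fell and Tctn3 did not pass. Tctn1 (chr5:122239495-122264489), required in mouse Hedgehog signalling, was at 40.5 and 33.8 CPM at 0 h and 11.8 and 15.2 CPM at 5 h, and fell 2.78-fold (-1.48 ± 0.19, adjusted p = 0.000165). Tctn2 (chr5:124598749-124627738) was at 22.1 and 23.8 CPM at 0 h and 14.02 and 10.7 CPM at 5 h, and fell 1.84-fold (-0.88 ± 0.20, adjusted p = 0.00522). Tctn3 (chr19:40596446-40612324) was at 14.4 and 10.2 CPM at 0 h and 17.0 and 19.6 CPM at 5 h (0.55 ± 0.22, adjusted p = 0.0725), passed without 0 h replicate 1 (0.84, adjusted p = 0.0285) and was at -0.30 with mitochondrial scaling (not passed). The 0 h and 5 h libraries of each tectonic were apart.

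The 3 parts were set side by side without a test of the differences between them. For comparison, 21.2% of all tested genes fell, 22.0% rose and 10.2% fell by 2-fold or more. The centrosomal part had the smallest median change, -0.51 over 35 Cep genes, with 54.3% lower, 11.4% higher and 12 lower by 2-fold or more. The transport part had -0.83 over 14 Ift genes, with 57.1% lower, 7.14% higher and 5 lower by 2-fold or more. The BBSome part had -1.04 over 8 Bbs genes, with 75% lower, none higher and 4 lower by 2-fold or more. Without the 2 chaperonin-like genes, the 6 BBSome subunits had a median of -0.76, with 2 lower by 2-fold or more. That median is smaller in size than the -0.83 of the transport part, so the order of these parts depends on the chaperonin-like genes. Over the 4 pairings of libraries the medians ran from -0.59 to -0.47 for Cep, -0.84 to -0.80 for Ift and -0.99 to -0.85 for Bbs. The spread among members of a part was larger than the distance between their medians, since the interquartile range of Cep ran from -1.24 to -0.04 and that of Bbs from -1.19 to -0.53. Within Cep the roles differed more: the median was -0.21 for centriole assembly and -0.10 for the appendages, against -1.38 for satellites, transition zone and axoneme, a grouping made with the counts already seen.

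**Figure D3:**
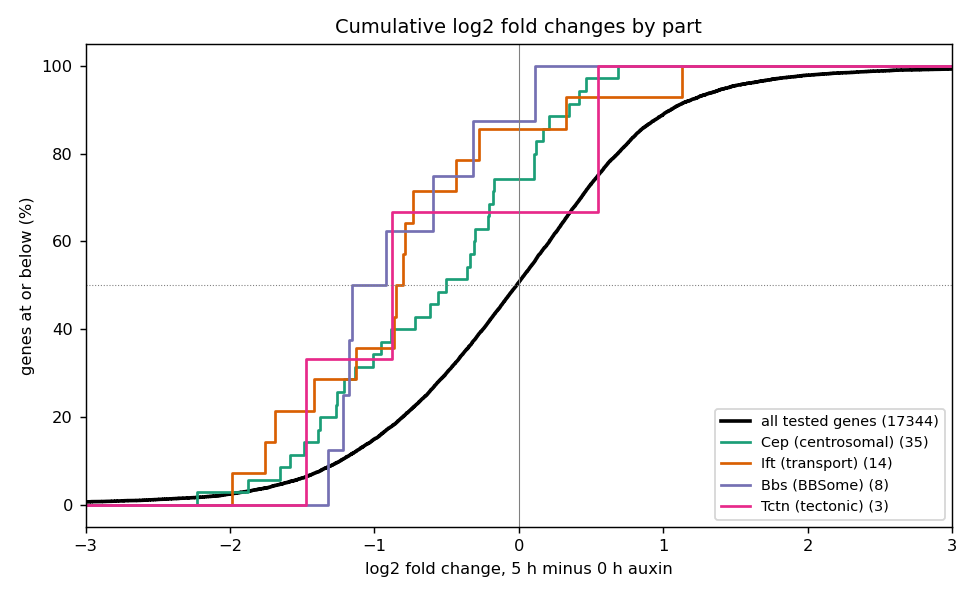
Cumulative share of genes at or below each log2 fold change (5 h minus 0 h) for all 17344 tested genes and for the Cep, Ift, Bbs and Tctn members, with a dotted line at 50%. At that line the Cep, Ift and Bbs curves lie left of the curve of all genes, with medians of -0.51, -0.83 and -1.04 against -0.02. Every family curve starts right of the curve of all genes. The lowest values are -2.23 (Cep), -1.99 (Ift), -1.32 (Bbs) and -1.48 (Tctn), against -10.07 over all genes.

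Centrosome and cilium genes with other names were counted in 7 lists taken from general knowledge. Of 86 such tested genes, 36 fell (41.9%, against 21.2% of all tested genes) and 7 rose (8.14%, against 22.0%), with a median of -0.44. The transition zone list had 11 of 20 lower and none higher (median -1.05), led by Cc2d2a, a partner of the tectonics, at 19.5 and 17.6 CPM at 0 h and 4.49 and 4.54 CPM at 5 h (-2.04 ± 0.23, adjusted p = 9.72e-05), and by Rpgrip1l (-1.86 ± 0.24, adjusted p = 0.000187). The IFT dynein list had 3 of 6 lower and none higher, with Wdr34 at -1.97 and Tctex1d2 at -1.88. Of 10 IFT subunits with other names, 4 fell and 1 rose: Wdr19 of IFT-A fell by 1.94 ± 0.23 and Wdr35 by 0.65, while Ttc30a1 of IFT-B rose by 0.72 ± 0.13 (adjusted p = 0.00159) and was at -0.14 with mitochondrial scaling. Of 6 BBSome subunits and partners, 1 fell (16.7%, below the 21.2% of all genes), the chaperonin-like Mkks, by 0.51 (adjusted p = 0.0125), and not without 0 h replicate 1 (adjusted p = 0.106).

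Among 13 centriole duplication genes, 6 fell and 2 rose. Spice1 was at 21.5 and 23.9 CPM at 0 h and 6.35 and 3.46 CPM at 5 h (-2.16 ± 0.28, adjusted p = 0.000177), and Ccdc14 was at 102 and 103 CPM at 0 h and 30.3 and 38.4 CPM at 5 h (-1.58 ± 0.14, adjusted p = 2.28e-05). Plk4, the kinase that starts duplication, was at 82.3 and 74.3 CPM at 0 h and 107 and 128 CPM at 5 h, and rose by 0.58 ± 0.12 but was at -0.27 with mitochondrial scaling. Stil rose by 0.40 ± 0.10 and was at -0.44 with mitochondrial scaling, and did not pass without either 0 h library. Of 21 genes of the pericentriolar material and gamma-tubulin, 5 fell and 4 rose (median -0.15), which at 23.8% and 19% is near the 21.2% and 22.0% of all genes: Haus1 and Nedd1 fell by 1.20 each, while Haus6 rose by 0.73 ± 0.10 (-0.13 with mitochondrial scaling) and Tubgcp3 by 0.46 (-0.38 with mitochondrial scaling; not passed without 0 h replicate 2, adjusted p = 0.136). Of 10 other appendage and satellite genes, 6 fell, led by Ttbk2 (-1.93 ± 0.18) and Fbf1 (-1.77 ± 0.19), and none rose.

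Genes of long span fell more often than short genes in these libraries, and the members had longer spans than most genes. The median span from RefSeq start to end was 40.6 kb for the members and 19.3 kb for all 15098 tested genes with a span. Among all genes of 20 to 50 kb, 31.5% fell, against 16 of 22 members (72.7%). Among those of 50 to 100 kb, 36.2% fell, against 11 of 19 members (57.9%), and among those of 5 to 20 kb, 20.2% fell, against 4 of 10. Of the 8 members over 100 kb, 3 fell (37.5%, against 29.8% of all genes). Bbs10, the only member under 5 kb, fell where 4.68% of all such genes did. Setting each member against the median of its span class left a median of -0.52, with 44 of 60 below, and -0.28, -0.54 and -0.91 for Cep, Ift and Bbs.

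Across genes, which are not independent replicates, the Spearman correlation of log2 fold change with span was -0.122 over the 60 members and -0.297 over all 15098 genes. By part it was -0.118 for Cep, -0.389 for Ift and 0.738 for the 8 Bbs genes. Among genes in level quartiles 2 and 3 (by mean CPM) with a span of 20 to 100 kb, 44.1% of 2802 fell with a median of -0.47, and 24 of 33 members fell (72.7%) with a median of -0.89. Whether span or level has a part in the members' values was not tested beyond these counts.

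**Figure D4:**
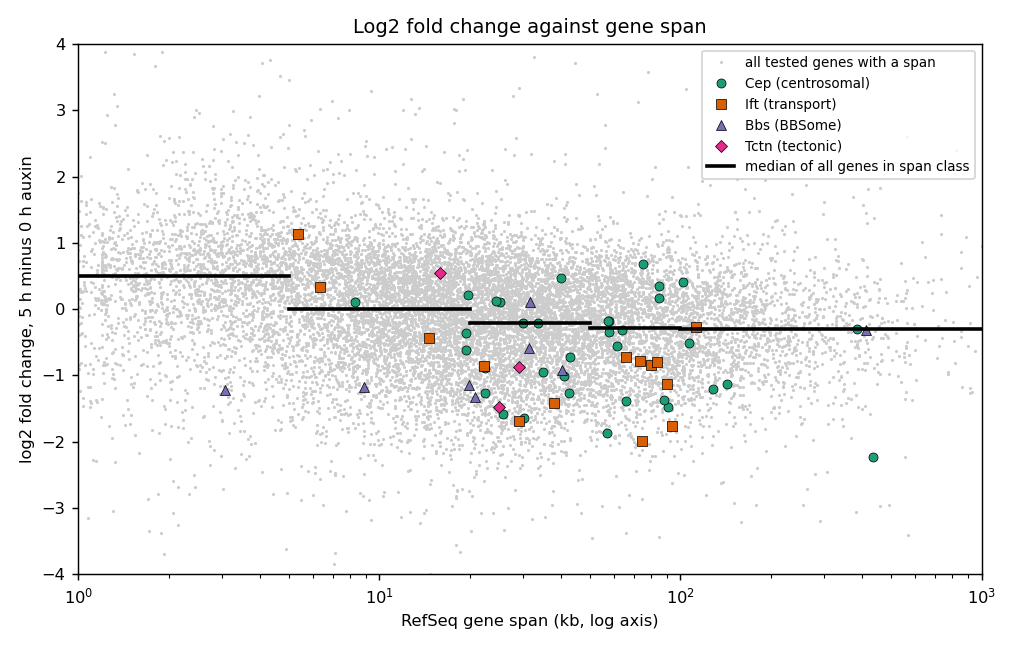
Log2 fold change (5 h minus 0 h) against gene span in kb on a log axis, with the Cep, Ift, Bbs and Tctn members over the tested genes with a RefSeq span (small points; those beyond the axes are not drawn) and bars at the median of all genes in each span class. The members have a median span of 40.6 kb against 19.3 kb, and Bbs10 is the member with the shortest span.

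Reads of overlapping genes could not be told apart, since the strand setting of the counts is not given. The RefSeq spans of 29 of the 60 members (48.3%) overlapped another gene, against 47.9% of all tested genes. Among the other 31 members, 18 fell and 2 rose, beside 21.2% and 22.0% of all tested genes. The shares over tested genes without an overlap were not computed, so this count does not say what such genes did in general. Among all tested genes with a promoter window, 19.6% had a gene starting within 1000 bases on the other strand, against 15 of 52 members (28.8%). Of the 15 neighbours, 11 were tested. The RefSeq spans of Cep95 and Ddx5, Cep57 and Fam76b, Cep63 and Anapc13, and Cep78 and C130060C02Rik overlap, so reads within these pairs could not be told apart. Cep95 and Ddx5, an RNA helicase gene, start 67 bases apart: Cep95 fell, while Ddx5 was at 1112 and 1215 CPM at 0 h and 1525 and 1771 CPM at 5 h and rose by 0.50 ± 0.10 (adjusted p = 0.00173), which became -0.36 with mitochondrial scaling.

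In the same way, Cep57l1 fell beside Sesn1, 706 bases away, which rose by 0.73 (adjusted p = 0.00440; -0.10 with mitochondrial scaling). Cep290 fell beside Tmtc3, 235 bases away, which rose by 0.52 (adjusted p = 0.00200; -0.34 with mitochondrial scaling). Cep89 and Faap24, 296 bases apart, both fell, Faap24 by 0.60 (adjusted p = 0.0163), and not without 5 h replicate 2 (adjusted p = 0.0669). Cep57, which did not pass, lies 609 bases from Fam76b, which rose by 0.59 (adjusted p = 0.00126; -0.26 with mitochondrial scaling). Ift20 rose beside Tnfaip1, 101 bases away, which did not pass (0.11). The neighbours Ddx5, Sesn1, Tmtc3, Fam76b and Faap24 were chosen after their values were seen.

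**Figure D5:**
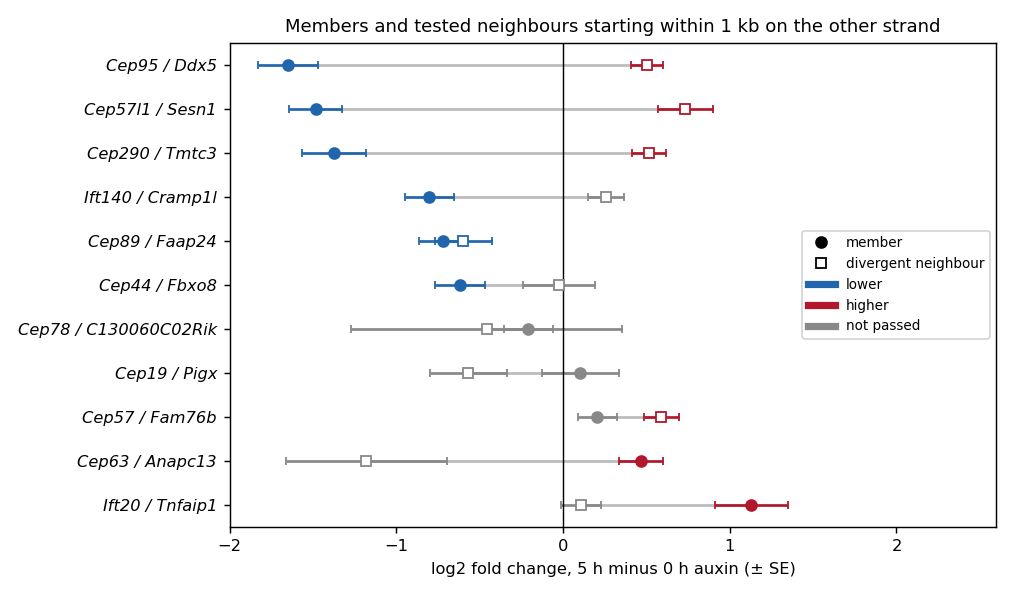
Log2 fold change (5 h minus 0 h) with standard error for the members that have a tested neighbour starting within 1000 bases on the other strand, with the member as a filled circle, the neighbour as an open square, and colour for lower, higher or not passed. In 3 pairs (Cep95 with Ddx5, Cep57l1 with Sesn1, Cep290 with Tmtc3) the member fell and the neighbour rose (the neighbours not with mitochondrial scaling). In Cep89 with Faap24 both fell (Faap24 not without 5 h replicate 2). The RefSeq spans of Cep95 and Ddx5 overlap.

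RFX transcription factors bind the X-box, a pair of inverted arms upstream of many cilium genes, and the promoters of the members were searched for it. RefSeq windows from 250 bases before to 50 after the annotated start (GRCm38.p6) existed for 52 of the 60 members, and some genes have several starts. The X-box letters, the arm GTTNCC and its inverse GGNAAC with 2 free bases between them, read the same on both strands and were in the windows of 3 of 52 members (5.77%), against 69 of 11006 tested genes (0.627%) and 143 of 27025 genes in all (0.529%). They are shown whole, 5′ to 3′ on the gene's strand, because they are the members with the full letters, which stand in capitals: Bbs7 (chr3:36613340-36613639, minus strand, motif 121 bases before the start), Cep19 (chr16:32099539-32099838, plus strand, 22 bases after it) and Tctn1 (chr5:122264411-122264710, minus strand, 36 bases after it).
Bbs7: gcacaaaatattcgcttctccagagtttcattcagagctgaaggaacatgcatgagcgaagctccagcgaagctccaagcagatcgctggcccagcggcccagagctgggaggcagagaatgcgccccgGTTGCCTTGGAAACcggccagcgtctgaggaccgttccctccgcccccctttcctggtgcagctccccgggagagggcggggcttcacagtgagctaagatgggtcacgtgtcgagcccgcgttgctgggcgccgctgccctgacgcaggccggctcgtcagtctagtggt
Cep19: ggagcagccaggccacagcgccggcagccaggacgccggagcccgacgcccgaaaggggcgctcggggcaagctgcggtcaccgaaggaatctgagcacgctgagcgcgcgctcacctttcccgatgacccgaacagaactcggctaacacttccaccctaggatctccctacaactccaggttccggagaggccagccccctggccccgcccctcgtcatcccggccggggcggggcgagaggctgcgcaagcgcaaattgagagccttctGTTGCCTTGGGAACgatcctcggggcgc
Tctn1: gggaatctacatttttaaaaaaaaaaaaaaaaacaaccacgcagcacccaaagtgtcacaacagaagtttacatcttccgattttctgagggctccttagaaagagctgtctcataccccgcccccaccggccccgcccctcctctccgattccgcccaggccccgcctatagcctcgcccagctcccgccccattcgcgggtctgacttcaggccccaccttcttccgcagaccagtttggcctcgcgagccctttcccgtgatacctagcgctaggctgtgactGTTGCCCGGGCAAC
Bbs7 and Tctn1 fell, and Cep19 did not pass. Of the 69 tested genes with these letters, 18 fell (26.1%) and 13 rose (18.8%).

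The 6-base arm GTTGCC alone, searched on both strands and contained in each of the sequences above, was in the windows of 19 of 52 members (36.5%), against 1637 of 11006 tested genes (14.9%) and 3821 of 27025 genes in all (14.1%). It was in 8 of 30 Cep, 5 of 11 Ift, 3 of 8 Bbs and 3 of 3 Tctn windows. Members that fell and had the arm without the full letters are printed below from the strand on which it reads GTTGCC, in windows of at most 30 bases, with the arm in capitals. They lie at chr19:4906605-4906634 (Bbs1), chr2:69647205-69647220 (Bbs5), chr11:108425174-108425203 (Cep112), chr6:30693859-30693888 (Cep41), chr17:25015961-25015990 (Ift140), chr5:31291093-31291122 (Ift172), chr14:57424076-57424105 (Ift88) and chr5:124598754-124598783 (Tctn2). Those of Bbs5 and Tctn2 are on the plus strand and the others on the minus strand.
Bbs1: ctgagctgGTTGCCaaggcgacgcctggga
Bbs5: gccggcgcGTTGCCtt
Cep112: tcaactctGTTGCCatggcgacgctccggg
Cep41: cgtcccgcGTTGCCcttggcaaccattgag
Ift140: ggcgcgagGTTGCCgtcacaacacgcccca
Ift172: gcactcacGTTGCCtgtgcgtcagcggtta
Ift88: gcccagccGTTGCCaggcgcgactccaagg
Tctn2: gattggtgGTTGCCatggctgcaggcattt
In Bbs1 and Cep112, and also in Ift57, which did not pass, 4 of the 5 fixed letters of the other arm follow at the searched spacing of 2 free bases. Other spacings were not searched. In the printed stretch of Cep41 the other arm follows whole at another spacing. The same holds for Tctn3 and a second site of Ift57, which did not pass. Cep164 and Cep97 also fell with the arm and are not printed. Members with the arm had 12 of 19 lower and none higher (median -0.88), and members without it had 19 of 33 lower and 5 higher (median -0.72). Over all tested genes, 434 of 1637 with the arm (26.5%) and 2344 of 9369 without it fell. Those that rose were 356 of the 1637 with the arm and 2100 of the 9369 without it. Whether the arm has a part in the members' values was not tested. Of the E2F letters, TTTCCCGC was in 1 of 52 members (1.92%, Cep128) against 2.40% of tested genes, and TTTGGCGC in 1 of 52 (1.92%, Ift27) against 1.13%, both strands searched.

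Of the RFX factors themselves, Rfx3, which acts in cilium formation, was at 18.1 and 14.8 CPM at 0 h and 6.56 and 3.24 CPM at 5 h, and fell by 1.71 ± 0.31 (adjusted p = 0.00145). Rfx5 fell by 0.61 ± 0.20 (adjusted p = 0.0292), a call lost with DESeq2 (adjusted p = 0.0724), without 0 h replicate 2 (0.127) and without 5 h replicate 1 (-0.39, adjusted p = 0.146). Rfx7 was at 319 and 317 CPM at 0 h and 536 and 570 CPM at 5 h, and rose by 0.80 ± 0.08 (adjusted p = 6.43e-05) with -0.052 under mitochondrial scaling. Rfx1 and Rfx2 did not pass, nor did Foxj1, the regulator of motile cilia, at 5.61 and 5.73 CPM at 0 h and 7.60 and 5.40 CPM at 5 h. Whether these levels have a part in the members' values was not tested.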

How the data were processed

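Nascent RNA of 4 mouse embryonic stem cell libraries (0 h and 5 h of auxin, 2 each) was captured by 4sU, biotin-HPDP and streptavidin beads, per the labels' protocols. The authors deposited whole-number gene counts, which are treated here as estimated counts because the layout is StringTie's count export, so 1 fragment can be worth several counts. The submitters' processing notes list mm10, DESeq2 1.42.0, StringTie 2.2.1 and HISAT2 2.2.1 without saying which did what. Annotation and strand setting are not given in the sources used here. Rounding changed nothing, 0 columns of other samples were present, and 0 genes lacked a name.

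Genes passing filterByExpr were fitted in edgeR 4.0.16 (R 4.3.3) with TMM factors, robust quasi-likelihood tests and Benjamini-Hochberg adjustment over 17344 genes. SE is the log2 fold change over the square root of F. The code was tested on simulated data. CPM is TMM-scaled with no floor. Spans, starts and promoters are RefSeq GRCm38.p6, the assembly of mm10, matched by symbol (39082 of 55401) or synonym (163).

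Named genes follow a rule: lowest adjusted p in each direction per family and list, all Tctn, and the highest mean CPM per family. Other genes named were chosen after their values were seen. Members, lists and rule were chosen with earlier results of these data known. The alternatives were library totals, DESeq2-style (RLE) and mitochondrial scaling, no filter and at least 50 counts in 2 libraries, DESeq2 1.42.0, limma-voom (limma 3.58.1), a replicate block, counts divided by 4, and leaving out each library. For 1 of the 60 tested members, the own result is not reported here, though it is in the counts.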

Additional observations from a re-analysis of the deposited data

How the results depend on the processing

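Of the 35 members that fell, 27 did so under all 13 alternatives, and none of the 5 that rose did. The exceptions among those that fell were Cep112, which the stricter filter left untested and which passed in the other 12, and Cep120, Bbs7, Bbs2, Cep164, Cep44, Cep131 and Cep55. With library totals, 2297 genes rose overall (3814 before), 2 members, 1 Cep gene and 2 genes of the pathway lists rose, and the medians were -0.28 for all genes, -1.03 for the members, -0.77 for Cep, -1.09 for Ift, -1.30 for Bbs and -1.14 for Tctn. With mitochondrial scaling, 396 genes rose and 8872 fell, 54 members and 32 Cep genes fell, 71 pathway genes fell, and 0 members, 0 Cep, 0 Ift and 0 pathway genes rose; the medians were -0.86 for all genes, -1.60, -1.32, -1.66, -1.88 and -1.71 for members, Cep, Ift, Bbs and Tctn. Values that turned to the other sign with it were Bbs4 -0.74, Cep152 -0.16, Cep170 -0.50, Cep170b -0.73, Cep19 -0.76, Cep192 -0.68, Cep57 -0.65, Cep63 -0.38, Cep76 -0.74, Cep83 -0.45, Haus6 -0.13, Plk4 -0.27, Stil -0.44, Ttc30a1 -0.14, Tubgcp3 -0.38, Ddx5 -0.36, Fam76b -0.26, Rfx7 -0.052, Sesn1 -0.10 and Tmtc3 -0.34, and, not passing either way, Ift22 -0.53 and Tctn3 -0.30. With library totals, Bbs4 -0.16, Cep170b -0.16, Cep19 -0.17, Cep192 -0.10, Cep57 -0.063 and Cep76 -0.15 turned without passing, and Cep63, Cep83, Cep170, Plk4, Stil, Tubgcp3, Ddx5 and Tmtc3 lost their calls. Leaving out a library, Cep170b ran from -0.090 to 0.26 and Cep19 from -0.20 to 0.37. The medians moved with limma-voom to -0.78 for members and -0.54 for Cep, with counts divided by 4 to -0.74 for members, -0.54 for Cep and -0.78 for Ift, and with the stricter filter to -0.48 for Cep and -0.85 for Ift. Leaving out each library gave 3 to 6 members higher and 30 to 35 lower, 1 to 5 Cep genes higher and 15 to 18 lower, 4 to 6 Bbs genes lower, 0 to 1 Tctn genes higher, and medians of -0.76 to -0.70 for members, -0.55 to -0.41 for Cep, -0.87 to -0.81 for Ift, -0.9995 to -0.89 for Bbs and -1.10 to -0.70 for Tctn; with one library left in a group, its spread is taken from the other group. The cause was not tested. Adding the replicate block gave 35 members lower and 5 higher, and the replicate numbers are only shared numbers here, with a correlation of replicate differences of 0.0505 over 2 pairs. Low counts limit Cep112 and Ift43 most.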

Other observations

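Several genes outside the 60 tested members are given as values, chosen after they were seen. Ccno, which acts in multiciliated cells, was at 2.68 and 1.65 CPM at 0 h and 15.5 and 8.11 CPM at 5 h, and rose 5.24-fold (2.39 ± 0.39, edgeR adjusted p = 0.000736). Of the other 7 tested markers of that cell type, Hydin fell (-1.66 ± 0.55, edgeR adjusted p = 0.0310) and lost its call with DESeq2 (0.0998) or without any library but 5 h replicate 1. The rest did not pass: Gmnc had -1.71, Rsph1 -0.89, Tekt1 -0.41, Dnaic1 -0.09, Foxj1 0.21 and Rsph4a 0.47. The genes that RefSeq now names Cep43 and Cep20 stand in the table under the older symbols Fgfr1op and Fopnl, and were not members by symbol; their log2 fold changes were 0.00 and -0.30. The opposite-strand gene Cep83os had 15 counts in 0 h replicate 1 and 0 in the other three libraries.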
